A study of Mus musculus with 36 samples.

Results

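Chromatin accessibility was examined at 5 natural killer (NK) receptor genes, Klrg1, Klrk1, Klrd1, Klrc1 and Klrb1c, in mouse CD4 T cells with and without the heterochromatin proteins HP1α or HP1γ. A peak was taken as a member when its midpoint was nearer to a protein-coding transcription start site (TSS) of one of these genes than to that of any other protein-coding gene, or when it overlapped the body of one of them. Of the 71509 consensus peaks, 31 met this rule, 12 at Klrg1, 10 at Klrb1c, 4 at Klrd1, 3 at Klrk1 and 2 at Klrc1. The rule used positions only and no measured value.

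Receptors of this family are C-type lectin-like proteins encoded in or near the NK gene complex, and NK cells, CD8 T cells and some antigen-experienced CD4 T cells carry them. Inhibitory members recruit phosphatases through motifs in their cytoplasmic tails, and activating members signal through adaptors such as DAP10 and DAP12. KLRG1 is an inhibitory receptor for cadherins that marks late effector T cells and NK cells. Klrk1 encodes NKG2D, an activating receptor for stress-induced ligands. Klrd1 encodes CD94, which pairs with NKG2A, the inhibitory product of Klrc1, to bind the non-classical MHC molecule Qa-1. Klrb1c encodes NK1.1, the antigen by which NK cells of C57BL/6 mice are commonly stained.

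The study asked how these proteins alter the response of conventional CD4 T cells (Tconv) to suppression by regulatory T cells (Treg). ATAC-seq, in which a transposase cuts accessible DNA, was carried out on 36 libraries in 12 groups of 3, formed by the line (HP1α or HP1γ), the genotype (KO or WT) and the condition. HP1α KO cells came from mice with a germline deletion obtained with CMV-cre and were set against Hp1a+/+ littermates, and HP1γ KO cells from mice with floxed Hp1g alleles deleted in T cells by Cd4-cre. The HP1γ controls, called WT here, were littermates homozygous for the floxed allele without the Cd4-cre transgene. In this line the transgene therefore went with the genotype. The mice were sex-matched littermates of mixed 129/Sv and C57BL/6 background. Naive cells were splenic CD62L+ CD44-/low CD4 T cells purified by negative selection. In the other conditions, naive CD4 T cells were injected into irradiated C57BL/6 hosts grafted with syngeneic and B6D2F1 bone marrow depleted of T and NK cells, either alone (Tconv) or together with WT Treg expanded ex vivo (TconvTreg), and Vβ6+ donor CD4 T cells were later sorted from the spleen. The transferred Treg were WT in every group and came from Foxp3-Thy1.1 mice, and the sort took Thy1.1- CD4+ cells, a gate that leaves out Treg carrying this reporter and cells without CD4. The sort on Vβ6 enriched for T cells that react to the allograft.

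Reads in peaks ranged from 1.49 to 96.8 M (mega) per library, with a median of 54.8 M, and 536 to 43935 of them fell in the 31 peaks. HP1γ libraries held 19.4 to 90.3 M. The study left out 3 HP1α TconvTreg libraries for low enrichment, and the same 3, with 3.2 to 7.12 M, are absent here from the HP1α tests unless stated. HP1α KO TconvTreg therefore rested on 1 library of 50.7 M and HP1α WT TconvTreg on 2 libraries of 12.7 and 1.49 M. Accessibility around the targeted genes did not check the genotypes, since 0 of 2 peaks nearest to Cbx5, which encodes HP1α, and 0 of 1 peaks nearest to Cbx3, which encodes HP1γ, were called between KO and WT in any condition. All 8 CD4 T cell markers had a peak within 1 kb of their TSS, with summed values of 818 to 1038 counts per M (CPM) in HP1γ WT TconvTreg and 955 to 1034 CPM in HP1γ KO TconvTreg. Within this sum Zbtb7b was lower in KO, with 8.66 to 11.1 CPM in WT and 4.1 to 6.02 CPM in KO. Cd3d, Cd3e, Cd3g, Cd5, Cd6, Cd28 and Lck overlapped. Nothing in the labels says that libraries of one group came from separate animals, so p-values measure the spread between these libraries, which may be technical.

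All 5 genes lie on chromosome 6 (GRCm39, GENCODE). Klrg1 (ENSMUSG00000030114.10) spans 122246981 to 122259914 on the minus strand, far from the others. Klrb1c (ENSMUSG00000030325.18) spans 128755448 to 128766178 on the minus strand. Klrd1 (ENSMUSG00000030165.19) spans 129568677 to 129575738 on the plus strand, Klrk1 (ENSMUSG00000030149.17) spans 129587286 to 129600827 and Klrc1 (ENSMUSG00000030167.17) spans 129642978 to 129655936, both on the minus strand. Peaks are named below by their gene and the distance of their midpoint from its most 5' protein-coding TSS, with plus for downstream and minus for upstream. Only 8 of the 31 overlapped the body of their gene, 12 lay in no annotated gene, and the others overlapped neighbouring genes. The TSS of Klrg1, Klrd1 and Klrc1 lay in a peak. The most 5' TSS of Klrk1 and Klrb1c did not, and the nearest peaks were 1.4 kb downstream and 4.0 kb upstream. None of the 10 Klrb1c peaks touched the gene, and 6 of them lay in the upstream gene Gm44511. Many receptors of this complex have near-identical paralogs, and reads of low mapping quality had been removed, so levels there are uncertain where copies are alike. The complex is also polymorphic between mouse strains, and which haplotype each library of this mixed background carried was not determined. Neighbouring peaks could also share reads.

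To show what the regions look like, the central 300 bases are given for peaks on which the results below turn and which hold no untranslated exon of a coding gene. All are read from the plus strand of GRCm39, in lower case, with every match to the motifs of AP-1 (TGANTCA), RUNX (TGTGGT), T-box factors (GGTGTGA), TCF/LEF (CTTTGA), ETS (CCGGAA) and ZEB (CACCTG), on either strand, in capitals. They are the Klrg1 peaks at +20.3 kb (chr6:122239437-122239736, in an exon of the lncRNA Gm68335) and +8.3 kb (chr6:122251452-122251751, in a Klrg1 intron), the Klrb1c peak at -4.0 kb (chr6:128770066-128770365, in a Gm44511 intron), the Klrk1 peaks at +15.3 kb (chr6:129585421-129585720, in the lncRNA Gm66636) and -3.9 kb (chr6:129604536-129604835, between genes) and, as a Klrd1 peak that opened with activation, that at +6.4 kb (chr6:129574901-129575200, in a Klrd1 intron).
Klrg1 +20.3 kb: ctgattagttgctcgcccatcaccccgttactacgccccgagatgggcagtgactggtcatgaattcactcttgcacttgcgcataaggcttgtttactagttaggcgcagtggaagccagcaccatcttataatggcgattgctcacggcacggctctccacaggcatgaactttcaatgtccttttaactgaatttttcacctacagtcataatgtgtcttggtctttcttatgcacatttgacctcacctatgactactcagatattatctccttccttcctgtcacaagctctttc
Klrg1 +8.3 kb: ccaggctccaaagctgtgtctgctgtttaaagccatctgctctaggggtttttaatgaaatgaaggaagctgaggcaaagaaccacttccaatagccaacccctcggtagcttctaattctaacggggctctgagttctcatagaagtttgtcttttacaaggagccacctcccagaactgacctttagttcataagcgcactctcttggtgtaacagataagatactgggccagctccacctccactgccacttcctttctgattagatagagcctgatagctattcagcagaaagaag
Klrb1c -4.0 kb: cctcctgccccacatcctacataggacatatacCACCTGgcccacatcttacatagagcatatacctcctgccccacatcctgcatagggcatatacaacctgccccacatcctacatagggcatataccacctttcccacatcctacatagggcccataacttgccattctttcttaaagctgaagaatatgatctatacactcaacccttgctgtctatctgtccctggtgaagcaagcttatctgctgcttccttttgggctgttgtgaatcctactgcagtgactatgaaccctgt
Klrk1 +15.3 kb: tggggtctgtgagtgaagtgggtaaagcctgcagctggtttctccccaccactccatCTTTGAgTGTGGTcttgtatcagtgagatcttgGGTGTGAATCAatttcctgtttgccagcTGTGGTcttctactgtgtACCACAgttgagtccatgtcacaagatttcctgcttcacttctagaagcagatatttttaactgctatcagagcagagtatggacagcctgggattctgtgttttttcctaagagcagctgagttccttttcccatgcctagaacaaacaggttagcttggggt
Klrk1 -3.9 kb: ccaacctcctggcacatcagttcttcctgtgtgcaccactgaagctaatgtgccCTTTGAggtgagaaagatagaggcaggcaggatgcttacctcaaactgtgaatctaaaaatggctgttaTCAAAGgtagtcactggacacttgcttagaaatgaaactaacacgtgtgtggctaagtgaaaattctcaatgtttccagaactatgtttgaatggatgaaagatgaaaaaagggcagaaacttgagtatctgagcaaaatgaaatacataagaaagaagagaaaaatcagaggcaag
Klrd1 +6.4 kb: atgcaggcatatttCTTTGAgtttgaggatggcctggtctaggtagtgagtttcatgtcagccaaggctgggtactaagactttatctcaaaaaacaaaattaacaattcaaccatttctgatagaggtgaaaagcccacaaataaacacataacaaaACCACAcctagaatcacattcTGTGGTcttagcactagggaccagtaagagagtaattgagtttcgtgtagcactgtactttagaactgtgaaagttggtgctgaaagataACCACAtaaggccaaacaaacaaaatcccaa

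The Klrd1 window reaches past its peak, which is 260 bp wide. Both Klrg1 windows held none of the 6 motifs. The Klrk1 +15.3 kb window held 6 matches, of which 3 were RUNX and the T-box and AP-1 matches overlapped, and the Klrd1 +6.4 kb window held 3 RUNX matches and 1 TCF/LEF match. The Klrk1 -3.9 kb window held 2 TCF/LEF matches and the Klrb1c -4.0 kb window 1 ZEB match. Among the 31 windows, RUNX letters were present in 35.5%, against 30% of all 71509 windows of the same length, TCF/LEF in 29% against 21.9%, AP-1 in 12.9% against 13%, T-box in 6.45% against 5.58%, ETS in 6.45% against 8.34% and ZEB in 9.68% against 22.9%. These are letter matches in short windows, and the absence of a match says only that the letters are not there.

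To ask how the receptor genes changed from naive to transferred cells, Tconv was compared with naive cells within each line and genotype. Klrg1 opened along its whole neighbourhood, Klrk1, Klrc1 and Klrb1c opened at some of their peaks, and Klrd1 opened inside the gene but not at its TSS. A peak was called when the edgeR quasi-likelihood test, adjusted by Benjamini-Hochberg over all peaks, gave an adjusted p under 0.05 at a log2 fold change above 1 or below -1. Of the 31 peaks, 21 were called higher in HP1α WT, where 24.9% of all peaks were called higher, 21 in HP1α KO (23.5%), 21 in HP1γ WT (24.5%) and 20 in HP1γ KO (22.4%). The only member called lower in any of these was the Klrd1 +15.4 kb peak in HP1γ KO, where 20.6% of all peaks were called lower. The median log2 fold change over the members was 2.99, 2.85, 3.06 and 2.88 in these comparisons, against -0.03, -0.05, 0.08 and 0.06 over all peaks.

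All 12 Klrg1 peaks were called higher in each of the 4 comparisons, by 2.48 to 7.33 on the log2 scale. The Klrg1 +12.6 kb peak (122246945 to 122247783), at the 3' end of the gene, held 2 to 25 reads in each of the 12 naive libraries. Its level was -3.86 to -1.18 log2 CPM in naive cells and 3.62 to 4.65 log2 CPM in Tconv, with no overlap. The log2 fold change was 7.31 ± 0.37 (SE) in HP1α WT, 7.30 ± 0.35 in HP1α KO, 7.33 ± 0.34 in HP1γ WT and 5.83 ± 0.37 in HP1γ KO. In HP1γ WT Tconv this was the tallest of the Klrg1 peaks per length, at 28.8 ± 1.08 (SD, n = 3) reads per kb per M, against 5.55 ± 1.35 (SD, n = 3) at the TSS peak (+0.1 kb). The widest Klrg1 peak, of 6912 bp at -11.9 kb, also overlaps 2 lncRNAs and the processed pseudogene Gm6637, so its reads cannot be assigned to Klrg1 alone.

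At Klrk1, the peak at +1.4 kb (129599011 to 129599890) was closed in naive cells and open in every Tconv library. Its level ran from -2.72 to -0.80 log2 CPM in the 12 naive libraries and from 1.18 to 4.05 log2 CPM in the 12 Tconv libraries. The log2 fold change was 4.99 ± 0.43 (SE) in HP1α WT, 4.83 ± 0.37 in HP1α KO, 5.84 ± 0.72 in HP1γ WT and 3.22 ± 1.0 in HP1γ KO. The -3.9 kb peak rose by 2.00 to 2.75. The +15.3 kb peak was already open in naive cells, at 3.47 to 4.09 log2 CPM, and stayed at 2.63 to 4.12 log2 CPM in Tconv, which was not called in any of the 4 comparisons.

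CD94 and NKG2A are partners, yet their TSS peaks differed. The Klrc1 peak over the TSS (+0.3 kb, 129655271 to 129655990) rose in all 4 comparisons, with log2 fold changes of 4.50 ± 0.46 (SE), 3.59 ± 0.45, 3.68 ± 0.55 and 2.41 ± 0.59 in the order HP1α WT, HP1α KO, HP1γ WT and HP1γ KO. The peak over the Klrd1 TSS (129568051 to 129569240, midpoint 32 bp upstream) was open in naive cells, at 2.77 to 3.13 log2 CPM, and had 1.51 to 2.98 log2 CPM in Tconv, with log2 fold changes of -0.56, -0.34, -0.10 and -0.66, none called. Inside Klrd1, the +6.4 kb peak rose by 2.03 ± 0.68, 2.95 ± 0.56, 4.66 ± 0.44 and 3.27 ± 0.44. The call in HP1α WT was lost without HP1α WT Tconv replicate 1 (1.95, adjusted p = 0.141). The Klrd1 +15.4 kb peak, in the lncRNA Gm66636 between Klrd1 and Klrk1, fell by 1.80 on the log2 scale in HP1γ KO.

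At Klrb1c, 3 of the 10 peaks were called higher in all 4 comparisons, those at +19.4, +18.2 and -4.0 kb, and the -12.5 kb peak was called in HP1α WT alone (1.19 ± 0.31). The -4.0 kb peak went from -1.36 to 0.55 log2 CPM in naive cells to 2.10 to 3.42 log2 CPM in Tconv, without overlap, and its log2 fold change was 3.56 ± 0.27, 3.21 ± 0.24, 4.05 ± 0.39 and 3.11 ± 0.43 in the same order. The wide peaks at +28.4, +24.2, -8.5 and -13.8 kb were open in naive cells and none of them was called.

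Markers of other cells, taken as the summed CPM of peaks within 1 kb of their TSS, moved with activation too. In HP1γ WT the NK cell sum went from 22.3 to 25.7 CPM in naive cells to 39.4 to 42.3 CPM in Tconv, without overlap. Of its 3 genes with such a peak, Eomes went from 17.6 to 19.1 CPM to 22.8 to 27.6 CPM, Gzma from 4.62 to 6.18 CPM to 13.5 to 15.7 CPM and Klre1 from 0.0977 to 0.386 CPM to 0.821 to 1.46 CPM. The CD8 marker Cd8b1 went down, from 31.7 to 35.5 CPM to 2.66 to 4.34 CPM. The myeloid sum went from 35.1 to 36.2 CPM to 45.3 to 50 CPM and the Treg sum from 53.6 to 62.8 CPM to 34 to 45.3 CPM, while the B cell sums overlapped. The myeloid genes did not move together, since Cebpa went from 3.3 to 4.94 CPM to 12.1 to 15.8 CPM and Cd14 from 10 to 10.5 CPM to 11.4 to 12.7 CPM, whereas Itgam went down, from 4.76 to 5.05 CPM to 2.42 to 4.26 CPM, and Spi1 overlapped. The CD4 marker sum also moved, from 822 to 866 CPM to 974 to 1220 CPM. Its genes did not move together either. Lck went from 174 to 185 CPM to 258 to 324 CPM, and Cd3d, Cd3e, Cd5 and Cd28 were also higher in Tconv. Zbtb7b went down, from 22 to 25.7 CPM to 8.45 to 12.5 CPM, and Cd3g and Cd6 overlapped. In HP1γ KO the NK cell sum went from 21.5 to 23.8 CPM to 28.6 to 58.8 CPM, whereas it overlapped between naive cells and Tconv in HP1α WT (20.9 to 30.6 and 29.4 to 45.6 CPM) and HP1α KO (21.4 to 34.1 and 23.2 to 50.6 CPM). In HP1γ KO, HP1α WT and HP1α KO the myeloid sum also went up and the Treg sum and Cd8b1 went down, without overlap. The B cell sum went up in HP1α KO, from 9.66 to 10 CPM to 10.6 to 13.9 CPM, and overlapped in HP1α WT. The part of these shifts in the result was not tested.

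Whether KO and WT cells differed in this response was tested by the interaction of genotype and activation. No member was called in either line, where 0% of all peaks in the HP1α line and 0.014% in the HP1γ line were called. In the HP1γ line, 26 of the 31 estimates were negative, with a median of -0.56 against -0.03 over all peaks, and 2 had an unadjusted p under 0.05, the Klrg1 +20.3 kb peak (-2.96 ± 1.28, adjusted p = 0.471) and the Klrd1 TSS peak (-0.56 ± 0.26, adjusted p = 0.516). In the HP1α line, 1 peak had an unadjusted p under 0.05. DESeq2 called 1 member in the HP1γ line and 0 in the HP1α line.

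The comparison of KO and WT within each condition asked whether HP1γ or HP1α altered accessibility at these genes. The members called between genotypes were all lower in KO, all in the HP1γ line, and most of them in cells exposed to Treg. In HP1γ TconvTreg, 8 of the 31 peaks were called lower in KO and 0 higher, where 5.38% of all peaks were called lower and 6.48% higher, 11.9% in all. The 8 comprised all 3 Klrk1 peaks, 2 Klrg1 peaks, 2 Klrb1c peaks and the Klrd1 TSS peak. The median log2 fold change of the 31 was -0.59, against -0.02 over all peaks, and 26 were negative. KO and WT libraries did not overlap, with KO below, at 11 members, as at 16.4% of all peaks. In these bulk samples, fewer open cells and less accessibility per cell cannot be told apart.

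NKG2D showed the largest change of the members. The Klrk1 +1.4 kb peak had 1.61, 3.91 and 1.71 log2 CPM in the HP1γ WT TconvTreg libraries and -1.05, 1.31 and 0.11 log2 CPM in the KO libraries. All KO libraries lay below all WT libraries, and replicate 2 was the highest of the WT and replicate 1 the lowest of the KO libraries. The log2 fold change was -2.47 ± 0.59 (SE, edgeR adjusted p = 0.00714). The +15.3 kb peak had 3.30, 3.93 and 2.77 log2 CPM in WT and 2.02, 2.58 and 2.18 log2 CPM in KO, again without overlap (-1.18 ± 0.29, adjusted p = 0.00927). The -3.9 kb peak had 1.78, 3.08 and 1.06 log2 CPM in WT and 1.37, 0.93 and 1.25 log2 CPM in KO, and here the groups overlapped (-1.13 ± 0.33, adjusted p = 0.0231). This call was lost with DESeq2 (-0.99), the older quasi-likelihood test, only the groups compared and 3 of the 6 removals of a library, and the estimate was -0.42 without WT replicate 2.

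For Klrg1, 2 of the 12 peaks were called, 1 in an intron and 1 beyond the 3' end. The +20.3 kb peak, in the lncRNA Gm68335, had 1.72, 2.77 and 2.64 log2 CPM in WT and -0.54, 1.35 and 1.28 log2 CPM in KO (-1.52 ± 0.36, adjusted p = 0.0062). The intronic +8.3 kb peak had 1.35, 2.40 and 2.13 log2 CPM in WT and -0.81, 0.90 and 0.91 log2 CPM in KO (-1.52 ± 0.33, adjusted p = 0.00353). In both, every KO library was below every WT library and KO replicate 1 was the lowest. Another 3 Klrg1 peaks, at +13.7, +12.6 and +0.1 kb, passed the adjusted p but not the fold threshold, with -0.59 ± 0.18, -0.82 ± 0.19 and -0.96 ± 0.32. Of the upstream peaks, those at -0.7 and -5.7 kb had -0.33 ± 0.30 and -0.45 ± 0.26, and those at -2.0, -6.9 and -11.9 kb 0.15 ± 0.32, -0.02 ± 0.18 and 0.13 ± 0.13. Upstream and downstream peaks were not compared by a test.

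The CD94 gene differed at its TSS. That peak had 2.50, 2.90 and 2.40 log2 CPM in WT and 1.64, 1.24 and 1.61 log2 CPM in KO, with all KO libraries below (-1.14 ± 0.24, adjusted p = 0.00353). The Klrc1 peaks, of its partner NKG2A, were not called. The TSS peak of Klrc1 had 2.09, 2.89 and 0.77 log2 CPM in WT and 1.89, 1.11 and 1.22 log2 CPM in KO (-0.81 ± 0.37, adjusted p = 0.12), and its -1.6 kb peak had -0.39 ± 0.24 (adjusted p = 0.252). At both Klrc1 peaks the groups overlapped.

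Upstream of Klrb1c, 2 peaks in Gm44511 were lower in KO. The -12.5 kb peak had 0.75, 0.42 and 0.73 log2 CPM in WT and -0.44, -0.33 and -0.87 log2 CPM in KO (-1.16 ± 0.25, adjusted p = 0.00405). The -4.0 kb peak had 2.54, 2.76 and 2.22 log2 CPM in WT and 1.12, 1.71 and 1.80 log2 CPM in KO (-1.02 ± 0.34, adjusted p = 0.0402). The groups were apart at both. The -4.0 kb call was lost with GC offsets, with or without the block, with DESeq2, with the older quasi-likelihood test and in 4 of the 6 removals of a library, where the adjusted p reached 0.173. The wide peaks around them, at -8.5 and -13.8 kb, had -0.14 ± 0.11 and -0.06 ± 0.12, and the +18.2 kb peak 0.04 ± 0.20.

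The number of calls in this comparison depended on single libraries. Without WT replicate 2, of 41.4 M, 1 member was still called, the Klrb1c -12.5 kb peak (-1.28, adjusted p = 0.0127), and the Klrk1 +1.4 kb peak had -1.22 (adjusted p = 0.153). Without KO replicate 1, of 64.2 M, 4 were called, the Klrg1 +20.3 and +8.3 kb, Klrb1c -12.5 kb and Klrd1 TSS peaks. The estimates of all 8 stayed negative under every alternative and with any 1 library left out. With only the 6 libraries compared in the fit, 3 were called.

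In HP1γ Tconv without Treg, 2 members were called lower in KO, where 1.66% of all peaks were. The Klrk1 +1.4 kb peak had 2.79, 3.73 and 3.02 log2 CPM in WT and 1.93, 1.18 and 1.46 log2 CPM in KO, without overlap (-1.65 ± 0.45, adjusted p = 0.0371). The Klrg1 +20.3 kb peak had 3.14, 3.36 and 2.90 log2 CPM in WT and 1.65, 2.39 and 2.15 log2 CPM in KO, also apart (-1.08 ± 0.25, adjusted p = 0.0151). Neither was called by DESeq2 or by the older form of the quasi-likelihood test, and leaving out single libraries gave 0 to 2 calls. The Klrb1c +18.2 kb peak passed the adjusted p in the other direction without reaching the fold threshold (0.71 ± 0.17, adjusted p = 0.0202). Between these groups the Treg marker sum was 34 to 45.3 CPM in WT and 51.3 to 59.5 CPM in KO and Cd8b1 2.66 to 4.34 and 4.83 to 5.62 CPM, without overlap, while the NK and B cell sums overlapped. The myeloid sum was 45.3 to 50 CPM in WT and 50 to 53.9 CPM in KO. Within these lists genes went both ways. Cebpa (12.1 to 15.8 and 21 to 28.4 CPM) and Klre1 (0.821 to 1.46 and 1.59 to 1.78 CPM) were higher in KO. Spi1 (15.7 to 18.7 and 13.1 to 13.9 CPM) and Cd79b (0.975 to 1.08 and 0.525 to 0.854 CPM) were lower. The other NK, B cell and myeloid genes overlapped. The Treg difference was in Ikzf2 (31.9 to 42.8 and 48.3 to 56.4 CPM), and Foxp3 overlapped (2.07 to 2.5 and 2.32 to 3.17 CPM). The part of these markers in the result was not tested.

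In HP1γ naive cells no member was called, where 0.14% of all peaks were, with 5 at an unadjusted p under 0.05, all Klrb1c peaks and all positive (0.26 to 0.89). DESeq2 called 1 member. Of the 31 estimates, 26 were positive, with a median of 0.36 against 0.03 over all peaks. Many Klrg1 peaks held only a few reads there.

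In the HP1α line no member was called between KO and WT in any condition, where 0.00559% of all peaks were called in naive cells, 0.021% in Tconv and 1.63% in TconvTreg, and neither DESeq2 nor a fit of all 18 libraries called any. In Tconv, 1 member was called without KO Tconv replicate 1. At an unadjusted p under 0.05 there were 0 members in naive cells, 1 in Tconv and 2 in TconvTreg. In Tconv this was the Klrc1 TSS peak, with 2.85, 2.32 and 3.10 log2 CPM in WT and 2.74, 1.24 and 1.42 log2 CPM in KO (-0.70 ± 0.30, adjusted p = 0.983). In TconvTreg the peaks were Klrk1 +1.4 kb (1.76 ± 0.81, adjusted p = 0.293) and Klrb1c -8.5 kb (0.53 ± 0.23, adjusted p = 0.254).

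With 1 kept KO library, the spread of HP1α KO TconvTreg was taken from the other groups of the fit. The HP1α TconvTreg estimates had wide errors, up to 1.0 at the Klrg1 TSS peak. At Klrk1 +1.4 kb the kept WT libraries had 1.15 and -4.59 log2 CPM, the latter from 0 reads in the library of 1.49 M, and the KO library had 2.69 log2 CPM. The libraries left out by the study had 2.38 log2 CPM in WT and 1.97 and 1.87 log2 CPM in KO, and with all 18 libraries the log2 fold change was 1.09 ± 0.66 (edgeR adjusted p = 0.566). The summed CPM of the CD4 markers was 523 to 713 in the kept WT libraries and 917 in the KO library.

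**Figure D1:**
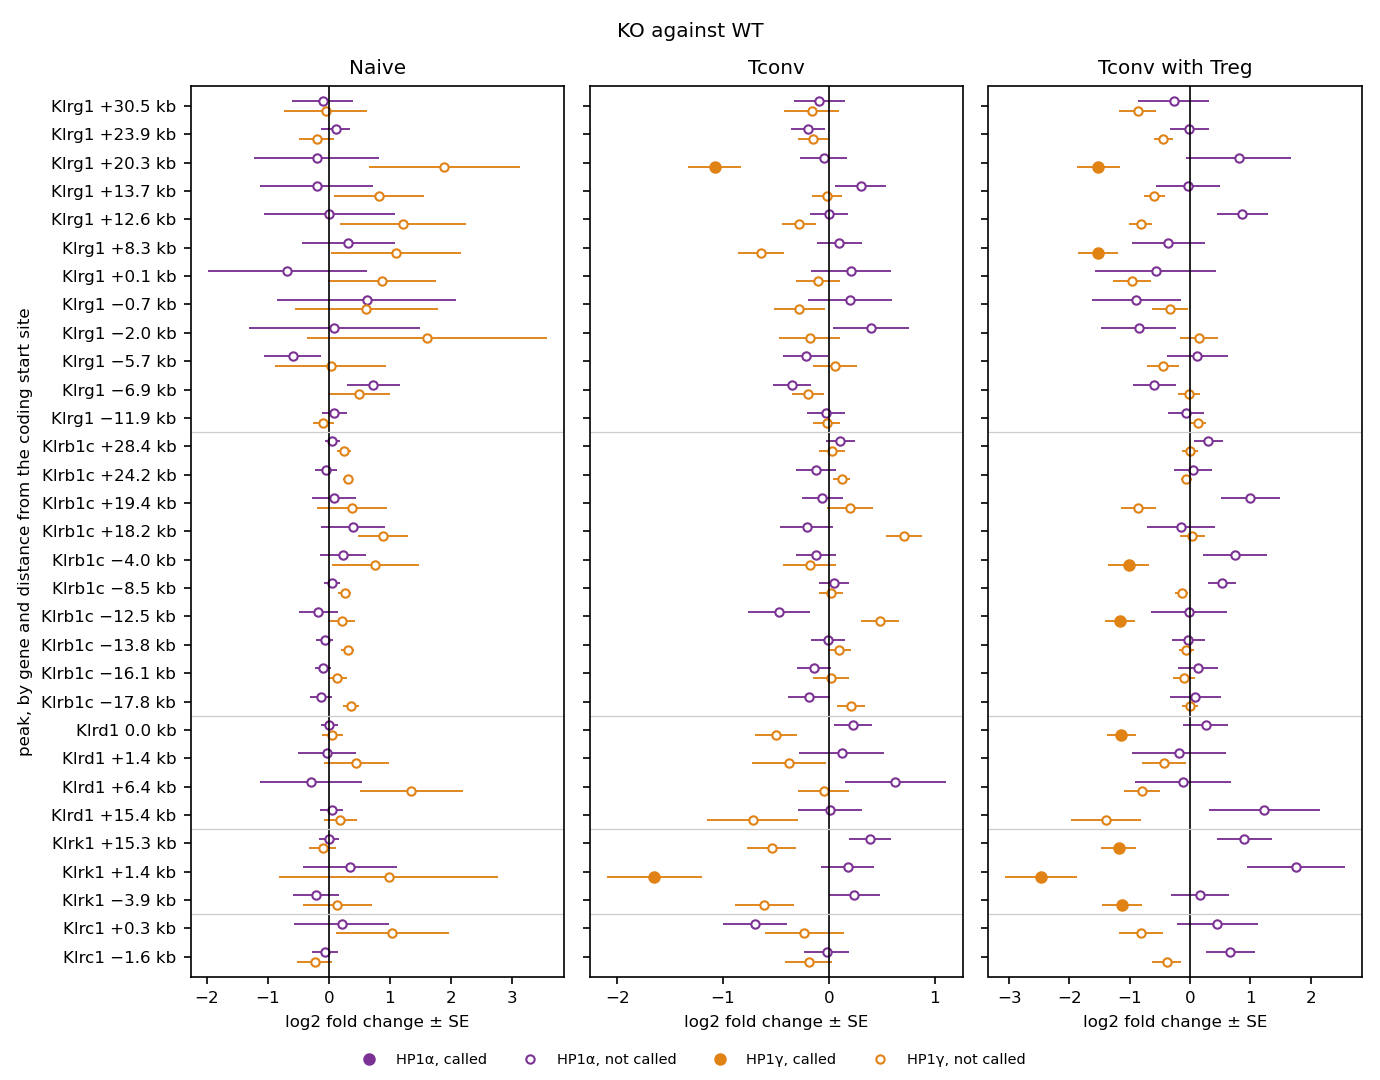
Log2 fold change of KO against WT (points) with SE (bars) on the horizontal axis for each of the 31 peaks, in naive, Tconv and TconvTreg cells of the HP1α and HP1γ lines. In HP1γ TconvTreg 26 points lie left of 0, with Klrk1 +1.4 kb farthest at -2.47, while in HP1α TconvTreg the bars are long and Klrk1 +1.4 kb lies at 1.76.

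The difference between the KO effects of the 2 lines in TconvTreg was fitted in 1 model of 33 libraries, a test chosen after the values were seen. In the HP1α line itself 17 of the 31 KO estimates were positive and 14 negative, with a median of 0.09 against -0.11 over all peaks, and 9 of the 12 Klrg1 estimates were negative, as were 10 of 12 in the HP1γ line. HP1α minus HP1γ was called higher at 5 of the 31 peaks, where 4.03% of all peaks were. They were Klrk1 +1.4 kb (4.31 ± 1.21, adjusted p = 0.0181), Klrk1 +15.3 kb (2.16 ± 0.62, adjusted p = 0.0207), Klrb1c +19.4 kb (1.94 ± 0.62, adjusted p = 0.0369), Klrg1 +12.6 kb (1.77 ± 0.49, adjusted p = 0.0162) and the Klrd1 TSS peak (1.49 ± 0.48, adjusted p = 0.0388). None remained called without HP1α WT replicate 1, with log2 depth as a covariate or with only the groups compared, and 1 was called without HP1γ WT replicate 2, 3 without HP1α WT replicate 2. The estimates stayed positive under every alternative and in each fit without 1 library, but their size moved, from 3.05 to 13.92 at Klrk1 +1.4 kb, 1.80 to 4.61 at Klrk1 +15.3 kb, 1.56 to 3.82 at Klrb1c +19.4 kb, 1.36 to 3.37 at Klrg1 +12.6 kb and 1.13 to 1.59 at the Klrd1 TSS. The highest of the first 4 ranges came without HP1α WT replicate 1, which leaves the library of 1.49 M as the only WT library. In the HP1α line depth goes with genotype, at 12.7 and 1.49 M in WT and 50.7 M in KO, and their parts cannot be told apart.

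The effect of Treg exposure itself was asked by comparing TconvTreg with Tconv within a genotype. In HP1γ KO cells, 8 of the 31 peaks were called lower with Treg, where 2.06% of all peaks were called lower and 6.1% higher. They were 4 Klrg1 peaks (+20.3, +13.7, +8.3 and +0.1 kb), 3 Klrb1c peaks (+19.4, -4.0 and -12.5 kb) and Klrk1 +15.3 kb. The largest fall was at Klrg1 +8.3 kb, from 1.69, 2.17 and 2.07 log2 CPM to -0.81, 0.90 and 0.91 log2 CPM (-1.56 ± 0.31, adjusted p = 0.00251). The Klrb1c -12.5 kb peak went from 1.12, 1.08 and 0.79 log2 CPM to -0.44, -0.33 and -0.87 log2 CPM (-1.53 ± 0.22, adjusted p = 0.000316), and the Klrg1 TSS peak from 0.89, 1.2 and 1.51 to -0.61, 0.01 and 0.28 log2 CPM (-1.42 ± 0.28, adjusted p = 0.00174). No Treg-exposed library reached a Tconv library at these 3 peaks. Without KO TconvTreg replicate 1, 3 members were called, without KO Tconv replicate 3, 5, and with only the compared groups in the fit, 0. Between the same groups the B cell marker sum went from 11.9 to 16.2 CPM to 16.6 to 20.9 CPM, the myeloid sum from 50 to 53.9 CPM to 57.9 to 74.2 CPM and the Treg sum from 51.3 to 59.5 CPM to 72.6 to 82.2 CPM, all without overlap, whereas the NK cell sums overlapped. In each of the 3 sums some genes went up and others down. Pax5 (5.03 to 6.41 CPM to 8.28 to 11 CPM), Cebpa (21 to 28.4 CPM to 35.9 to 47.4 CPM) and Ikzf2 (48.3 to 56.4 CPM to 70.7 to 79.8 CPM) were higher with Treg. Cd79b (0.525 to 0.854 CPM to 0.334 to 0.452 CPM), Itgam (1.4 to 3.24 CPM to 0.902 to 1.28 CPM), Cd14 (11 to 13.1 CPM to 9.02 to 10.6 CPM) and Foxp3 (2.32 to 3.17 CPM to 1.91 to 2.31 CPM) were lower, and Ebf1 and Spi1 overlapped. Of the NK cell list, Gzma (11.1 to 16.3 CPM to 8.13 to 9.24 CPM) and Klre1 (1.59 to 1.78 CPM to 0.895 to 1.57 CPM) were lower with Treg. Eomes, which made up most of the NK cell sum, overlapped (15.8 to 40.7 and 29.5 to 71.1 CPM). The part of all these markers in the result was not tested.

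In HP1γ WT cells no member was called between TconvTreg and Tconv, where 0.137% of all peaks were called. At an unadjusted p under 0.05 there were 7 members, all Klrg1 peaks, with -0.80 to -0.31, among them Klrg1 +12.6 kb (-0.41 ± 0.17, adjusted p = 0.19). DESeq2 called none, and 1 was called without WT TconvTreg replicate 2. By the interaction of genotype and Treg no member was called (1 with DESeq2, 1 without KO TconvTreg replicate 2) against 0.0014% of all peaks, so the fall was not shown to differ between KO and WT. Of the 31 interaction estimates 28 were negative, with a median of -0.52 against -0.04 over all peaks, and the smallest p was at Klrb1c -12.5 kb (-1.63 ± 0.31, adjusted p = 0.19). The interaction and the KO against WT comparison share libraries.

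In HP1α WT cells, 2 members were called lower with Treg, where 1.84% of all peaks were called lower. The Klrg1 +20.3 kb peak had 2.41, 2.64 and 2.62 log2 CPM in Tconv and 0.31 and -4.59 log2 CPM in the 2 kept TconvTreg libraries, the last from 0 reads (-2.40 ± 0.67, adjusted p = 0.0301). Klrg1 +12.6 kb had 4.25, 3.75 and 4.01 log2 CPM in Tconv and 2.89 and 1.12 log2 CPM in TconvTreg (-1.33 ± 0.38, adjusted p = 0.0364). Neither call held without WT TconvTreg replicate 1, without replicate 2 or without WT Tconv replicate 1. Without WT TconvTreg replicate 1, which leaves the library of 1.49 M, the estimates were -11.32 and -3.01 (adjusted p = 0.97 for both), and with the block and log2 depth they were -1.32 and -0.64. Between these groups the B cell marker sum went from 9.85 to 11.6 CPM to 21.6 to 22.5 CPM, the NK cell sum from 29.4 to 45.6 CPM to 50.8 to 73.9 CPM and the myeloid sum from 43.8 to 46.9 CPM to 48.1 to 67.9 CPM, without overlap. Within the myeloid list Cebpa went from 16.8 to 21.8 CPM to 31 to 50.6 CPM, whereas Spi1 went down, from 12.6 to 17.2 CPM to 5.35 to 6.99 CPM, as did Itgam, from 2.21 to 3.27 CPM to 1.07 to 1.95 CPM (2 to 26 reads a library), and Cd14 overlapped. Pax5 and Ebf1 of the B cell list were higher with Treg and Cd79b overlapped. Of the NK cell list, Eomes (18.8 to 36.5 CPM to 38.5 to 62 CPM) and Gzma (6.11 to 9.62 CPM to 10.2 to 10.7 CPM) were higher. Klre1 overlapped (0.651 to 2.99 and 1.13 to 2.14 CPM). The CD4 marker sums overlapped (672 to 974 and 523 to 713 CPM). Within them Cd3d (83.2 to 105 CPM to 47.6 to 69.6 CPM), Cd3e, Cd3g, Cd6 and Zbtb7b were lower with Treg, and Cd5, Cd28 and Lck overlapped. The part of these markers was not tested. In HP1α KO cells no member was called, where 0.548% of all peaks were (DESeq2 called 0, 1 was called with all 18 libraries and the replicate number as a block, and 1 or 2 without HP1α KO Tconv replicate 3 or 1), with 3 at an unadjusted p under 0.05, and the smallest p was again at Klrg1 +20.3 kb (-1.54 ± 0.36, adjusted p = 0.052). The interaction called no HP1α member, where 0.0461% of all peaks were called, and none had an unadjusted p under 0.05.

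**Figure D2:**
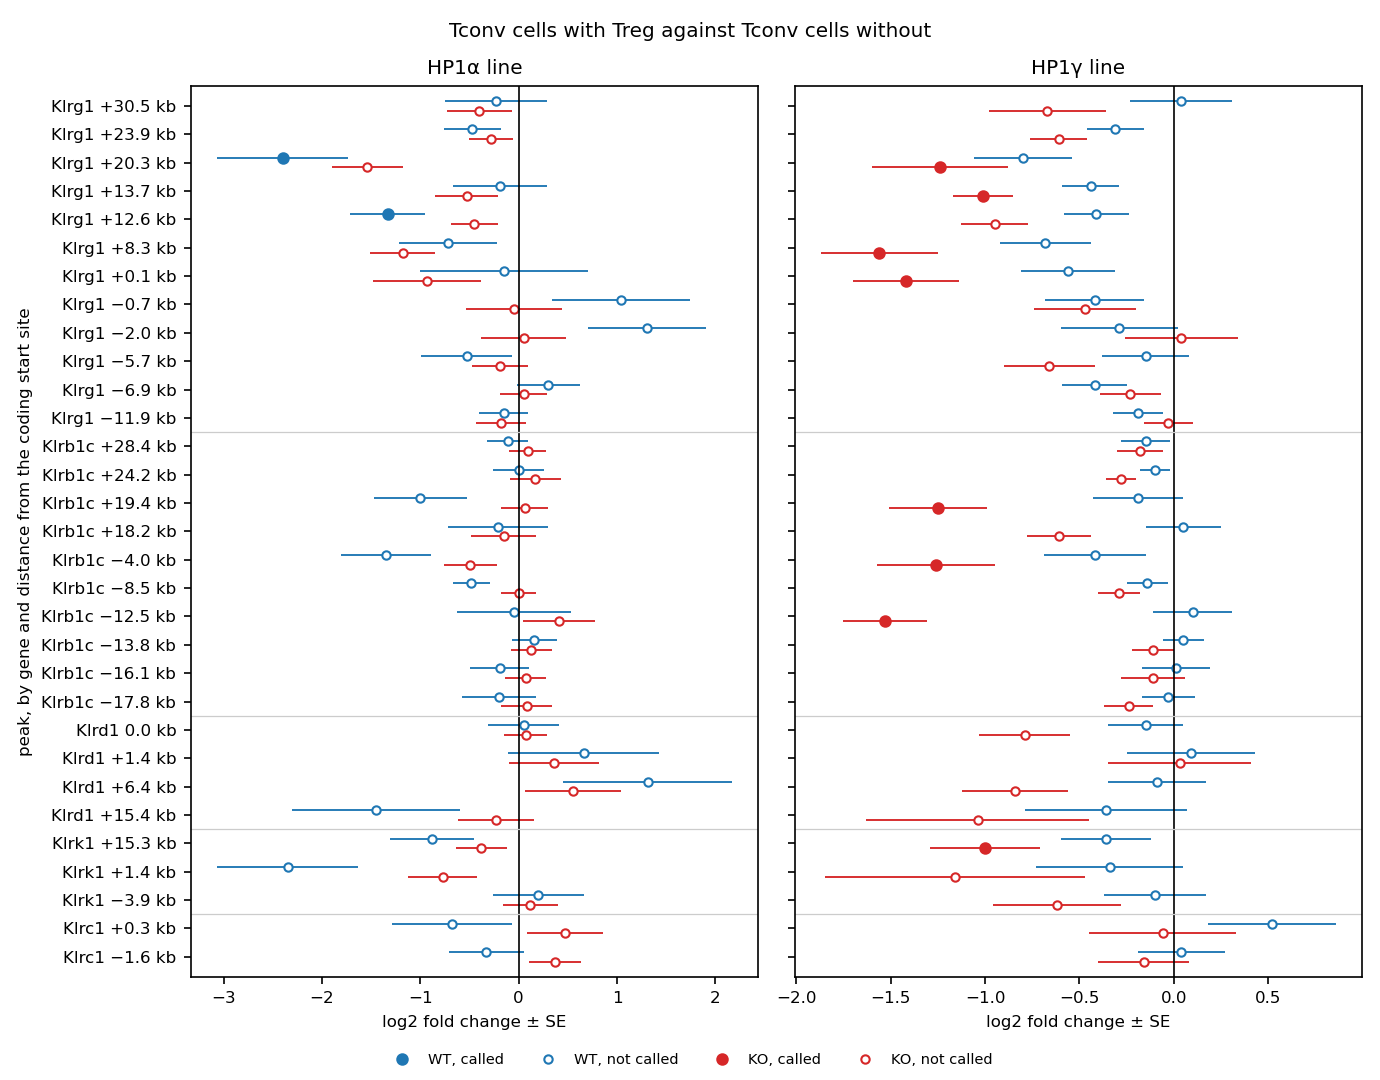
Log2 fold change of TconvTreg against Tconv (points) with SE (bars) for the 31 peaks, in WT and KO cells of each line. Filled points are called peaks. In HP1γ KO cells 29 of the points lie left of 0, with Klrg1 +8.3 kb farthest at -1.56, and the HP1α WT bars are the longest.

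**Figure D3:**
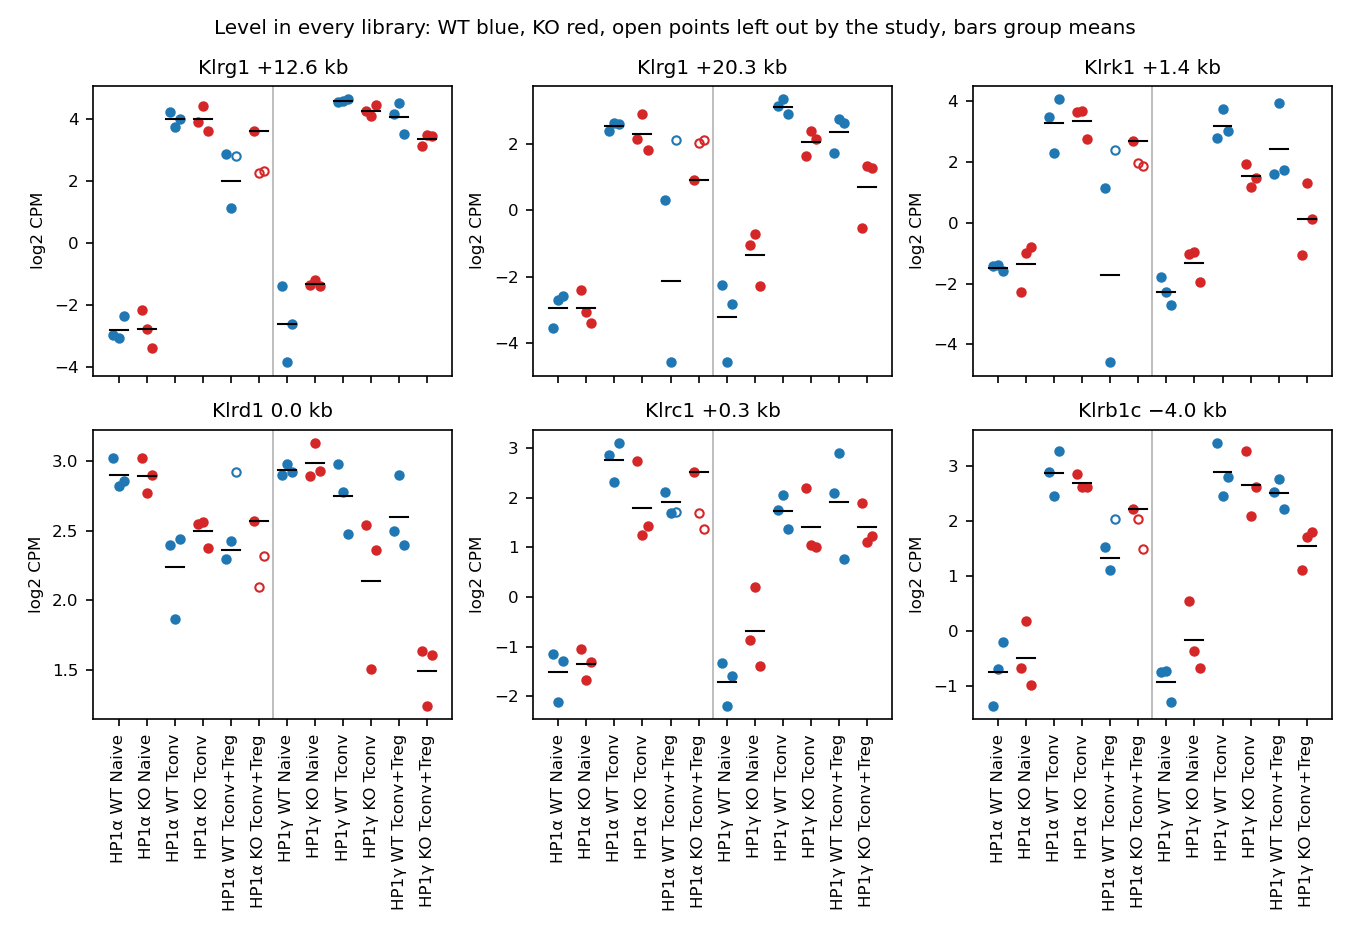
Accessibility in log2 CPM of 6 peaks (panels) in each of the 36 libraries (points), by group, with bars for group means and open points for libraries left out by the study. Klrg1 +12.6 kb, Klrk1 +1.4 kb, Klrc1 +0.3 kb and Klrb1c -4.0 kb are low in naive cells and high in Tconv, the Klrd1 TSS peak is at 2.77 to 3.13 in all naive libraries, and values of -4.59 stand for 0 reads.

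The same markers were examined between HP1γ KO and WT TconvTreg. Of the 8 NK cell markers 3 had such a peak (Eomes, Gzma and Klre1), with 33.6 to 45.3 CPM in WT and 38.6 to 81.9 CPM in KO, and Ncr1, Klra8, Klra4, Klra7 and Fcgr3 had none. Eomes, which CD4 T cells can also open, made up 20.3 to 32.2 CPM of this in WT and 29.5 to 71.1 CPM in KO. Gzma, which encodes granzyme A, had 9 to 11.8 CPM in WT and 8.13 to 9.24 CPM in KO, and Klre1, a receptor gene of the same complex, 1.42 to 1.86 CPM in WT and 0.895 to 1.57 CPM in KO. The summed ranges of the NK list overlapped between KO and WT. B cell markers (3 of 6 with a peak) had 11.1 to 14.7 CPM in WT and 16.6 to 20.9 CPM in KO, myeloid markers (4 of 6) 43.7 to 49.3 and 57.9 to 74.2 CPM, and the Treg markers Foxp3 and Ikzf2 together 33.7 to 58.3 and 72.6 to 82.2 CPM. Cd8b1, the CD8 marker with a peak, had 4.16 to 6.33 CPM in WT and 3.74 to 5.38 CPM in KO. The markers of NKT and gamma-delta T cells had no peak at their TSS. The B cell, myeloid and Treg sums were higher in every KO library than in every WT library, but not each of their genes was. Ikzf2 had 31.3 to 55.6 CPM in WT and 70.7 to 79.8 CPM in KO, whereas Foxp3 had 2.37 to 2.69 and 1.91 to 2.31 CPM. Cebpa had 13.8 to 22.5 CPM in WT and 35.9 to 47.4 CPM in KO, whereas Itgam had 2.05 to 3.09 and 0.902 to 1.28 CPM, and Spi1 and Cd14 overlapped. Ebf1 had 4.77 to 5.93 CPM in WT and 7.88 to 9.53 CPM in KO, Cd79b 0.809 to 1.29 and 0.334 to 0.452 CPM, and Pax5 overlapped. The part of these markers in the result was not tested.

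The other genes of the receptor system were taken from lists by role. In HP1γ WT activation, where 24.5% of all peaks were called higher and 22% lower, 18 of 22 other receptor genes of the NK complex had peaks, and of these 62 peaks 28 (45.2%) were called higher and 5 (8.06%) lower (median 0.88). Klra8 opened at both of its peaks (3.82 ± 0.32 at the peak of smallest p), as did Klra3 (4.86 ± 0.52), Klrh1 (4.23 ± 0.54) and all 3 peaks of Klri2 (4.15 ± 0.27), whereas Klrb1b had 1 peak higher and 2 lower (-2.18 ± 0.22). Of the 29 ligand peaks 10 (34.5%) were called higher and 0 lower, among them Ulbp1, an NKG2D ligand, with 1 of 5 peaks (3.63 ± 0.30) and Cdh1, the KLRG1 ligand E-cadherin, with 2 of 7 (3.08 ± 0.45). The gene Clec2d is in both the receptor and the ligand list, and its 10 peaks, 5 of them called higher, count in each. Adaptor genes had 12 higher (22.6%) and 11 lower (20.8%) of 53 peaks, close to the shares of all peaks, with Tyrobp, which encodes DAP12, higher at 2 of 3 (2.79 ± 0.24) and the kinase gene Syk lower at 6 of 12 (-3.53 ± 0.27 at the peak of smallest p). Among the phosphatase genes, 14 of 27 peaks (51.9%) were called higher and 2 (7.41%) lower.

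Of the 412 peaks at transcription factor genes of the killer cell programme, 184 (44.7%) were called higher and 73 (17.7%) lower in HP1γ WT activation, against the same 24.5% and 22% of all peaks. Tbx21, which encodes T-bet, opened at all 9 of its peaks (7.79 ± 0.39 at that of smallest p), Prdm1, which encodes Blimp-1, at 27 of 39, and Zeb2 at 21 of 27. Tcf7 and Bcl11b, factors of naive and committed T cells, were called lower at 12 of 22 and 40 of 102 peaks. The same lists in HP1α WT activation gave 24 higher and 5 lower receptor peaks and 172 higher and 63 lower transcription factor peaks, where 24.9% of all peaks were called higher and 17.5% lower.

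Between HP1γ KO and WT TconvTreg, 5 of the 62 other receptor peaks (8.06%) were called lower and 0 higher, where 5.38% of all peaks were called lower. They lay at Klra8 (-1.80 ± 0.30, adjusted p = 0.000659), Klra9, Klrb1f, Klrc2 (-2.38 ± 0.61, adjusted p = 0.00873) and Klri2. Klrc2 encodes NKG2C, an activating partner of CD94, and is a close paralog of Klrc1. The adaptor list had 2 higher and 2 lower of 53 peaks (3.77% each) and the ligand list 0 higher and 2 lower (6.9%) of 29. Tyrobp was lower at 2 of 3 peaks (-1.93 ± 0.29, adjusted p = 0.000325), Cdh1 at 2 of 7 (-1.41 ± 0.30) and Tbx21 at 2 of 9 (-1.35 ± 0.31). Over the transcription factor list 47 of 412 peaks (11.4%) were lower and 23 (5.58%) higher, where 5.38% and 6.48% of all peaks were, with Bcl11b and Id2 lower at 16 and 17 peaks, and Prdm1 higher at 7 and lower at 2. The phosphatase list had 3 higher and 2 lower of 27. Between HP1α KO and WT TconvTreg, where 1.63% of all peaks were called, no receptor, ligand or adaptor peak of these lists was called. Of the other lists, Ptpn11 (-2.75 ± 0.59, adjusted p = 0.0212), Eomes (-2.94 ± 0.50, adjusted p = 0.00515) and Prdm1 (-2.16 ± 0.50, adjusted p = 0.0238) were lower at 1 peak each and Zeb2 at 2, and Tbx21 was higher at 1 of 9 (2.13 ± 0.46, adjusted p = 0.0244).

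Over the 12 group means of log2 CPM, the peaks nearest to the TSS of Klrg1, Klrk1, Klrc1 and Klrb1c followed each other, with Pearson's r of 0.80 to 0.97, and that of Klrd1 ran the other way, with r of -0.59 to -0.29. The points share libraries, and most of the spread is between naive and transferred cells. Among the TSS peaks of 11842 other genes, the most like Klrg1 were 1700028K03Rik (r = 0.990), Cish (0.988) and Pdcd1lg2 (0.984), and the most like Klrk1 were Atg7 (0.986), Cxcl9 (0.985) and Cdhr4 (0.969). The nearest to Klrc1 were Tmem163, Galnt3 and Hhex (0.976 to 0.981), and to Klrb1c Atp2a1, Rcbtb2 and Prr5 (0.990 to 0.991). For Klrd1 the closest were Lrrc75b, Cd79b and Tmem235, at 0.908 and below.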

How the data were processed

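The authors deposited whole-number counts of ATAC-seq reads at merged peaks, not normalized. By the study's methods and the submitters' processing notes, reads were trimmed with Trim Galore 0.6.7, aligned to GRCm39 with BWA-MEM2, and filtered with SAMtools and Picard for low mapping quality, blacklisted regions and duplicates. Each sample's peaks were called by HMMRATAC, merged with bedtools, and counted with featureCounts 2.0.3, which let a read count for neighbouring peaks. Of 71512 intervals, 3 without width were left out, and 0 per-sample columns were unused. Groups came from the labels.

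Each line was fitted apart, HP1α with the 15 libraries kept by the study and HP1γ with 18, after filterByExpr and TMM scaling, with the quasi-likelihood test of edgeR 4.0.16 (R 4.3.3, two-sided, Benjamini-Hochberg over all peaks of a comparison). Biological coefficients of variation were 26.6% (HP1α) and 22.2% (HP1γ), and depth (1.49 to 96.8 M reads in peaks) limits precision. Levels are log2 CPM with a prior count of 2, where 0 reads give -4.59. Reads per kb use the peak width. Peaks were named where nearest to a member's TSS, where called in a comparison of KO and WT, of Treg exposure or of interactions, and for activation where of smallest p per gene and line. The likeness of 11842 other genes was ranked by Pearson's r over 12 group means.

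The member genes, lists, motifs and tests were chosen with earlier results of these data known. The older (legacy) quasi-likelihood test and the test between lines were added after seeing the data. Other alternatives were DESeq2 1.42.0, library size alone, GC offsets (lowess span 0.3), no filter, log2 depth as a covariate, only the groups compared, no fold minimum, other assignments of peaks, all 18 HP1α libraries, the replicate number as a block, and leaving out each library. The scripts were tested on simulated data.

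Whether equal replicate numbers pair libraries was checked by correlating, across peaks, their deviations from the group means. All 3 correlations exceeded 0.1 for HP1α KO and WT naive cells (0.25 to 0.50), HP1γ KO and WT TconvTreg (0.15 to 0.32) and HP1γ WT TconvTreg and Tconv (0.20 to 0.29). What a number marks is not given in the labels. Figures were drawn with matplotlib 3.10.9.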

Additional observations from a re-analysis of the deposited data

Results flagged for a closer look

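The KO effect in TconvTreg was called different between the HP1α and HP1γ lines at 5 receptor peaks by a test of the difference itself, chosen after the values were seen, where 4.03% of all peaks were called higher. The HP1α minus HP1γ difference in log2 fold change was 1.77 at Klrg1 +12.6 kb, 1.94 at Klrb1c +19.4 kb, 1.49 at the Klrd1 TSS peak, 2.16 at Klrk1 +15.3 kb and 4.31 at Klrk1 +1.4 kb. At Klrk1 +1.4 kb the difference was made of 1.76 ± 0.81 (SE) in the HP1α line and -2.47 ± 0.59 in the HP1γ line, of which the second alone was called. The HP1α side rested on 1 KO library, whose spread was taken from the other groups, and on 2 WT libraries, 1 of them with 0 reads at that peak. None of the 5 remained called without HP1α WT replicate 1, with log2 depth as a covariate or with only the groups compared, although all 5 estimates stayed positive.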

How the results depend on the processing

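Member peaks called kept their number, within 1.5 times, under library size alone, GC offsets and no filter in all comparisons. For HP1γ KO against WT TconvTreg (8 calls), 3 were called with only the groups compared and 5 with the nearest TSS of any gene (15 peaks) or within 10 kb or in the gene body (16 peaks). With the replicate number as a block, for which the numbers pair these libraries, 9 were called, and the block changed no other call count of a paired comparison by over 1.5 times. For HP1γ KO against WT Tconv (2), 1 was called with log2 depth, with the block and log2 depth, with only the groups compared and with either other assignment, and 0 with the legacy test and DESeq2. For HP1γ KO TconvTreg against Tconv (8), 5 were called with DESeq2, 0 with only the groups compared, 13 without a fold minimum, 4 and 3 under the other assignments, and 6 with the block, where the numbers do not pair the libraries. For HP1α WT TconvTreg against Tconv (2), 0 were called with log2 depth, alone or with the block, 4 with the legacy test, 6 with DESeq2, and 1 with all 18 libraries, only the groups compared or either other assignment. Activation in HP1α WT and HP1γ KO (21 each) gave 13 under both other assignments, which hold fewer peaks. DESeq2 called 1 in HP1γ naive cells and 1 in each HP1γ interaction, where the main count was 0. Between lines (5), 0 were called with log2 depth and with only the groups compared, 3 with all 18 HP1α libraries and within 10 kb, and 8 with DESeq2. Beyond the number of peaks assigned, the causes were not tested.

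Leaving out each library in turn gave 0 to 1 calls for HP1α KO against WT Tconv, 19 to 22 and 20 to 21 for activation in HP1α WT and KO, 0 to 3 and 0 to 2 for Treg exposure in HP1α WT and KO, 0 to 2 and 1 to 10 for HP1γ KO against WT Tconv and TconvTreg, 21 to 22 and 20 to 22 for activation in HP1γ WT and KO, 0 to 1 and 3 to 9 for Treg exposure in HP1γ WT and KO, 0 to 1 for the HP1γ interaction with Treg, 0 to 5 between lines, and 0 elsewhere. Where this left 1 WT library of HP1α TconvTreg, the lone library is assumed to vary like the others, and the only kept KO library could not be left out. Since 1 library was kept in HP1α KO TconvTreg, the block was fitted there with all 18 libraries, a setting added after seeing the data, which called 0 against WT, 1 against Tconv and 0 for the interaction with Treg. No block was fitted between lines. Of 730 values of named peaks under an alternative or without 1 library, 625 kept their call, 105 lost it and 0 changed direction. Shallow libraries limit the HP1α TconvTreg values.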
